A study of Mus musculus with 60 samples.

Results

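Dome and suspension cultures of the same liver organoids were compared across all genes. The members were the 6 bulk libraries whose labels name a dome or a suspension culture, 3 of each, of 60 samples in the series, whose other samples are single organoids and cultures at different passages. The organoids were grown from bile duct cells of C57BL/6N mice aged 3–4 months, and each pool of animals gave a dome culture and a suspension culture. In dome culture the organoids sat inside 30 µl drops of Matrigel, a basement membrane extract, with fresh medium every 2 days and passaging every 5–7 days. In suspension culture they floated in medium with 10% Matrigel on a shaker turning at 80 r.p.m., and were passaged every 3–4 days. Matrigel density, shaking, the interval between passages and the handling of medium therefore changed together and cannot be told apart. All organoids were started in domes from bile duct fragments of pooled animals. The labels give 3 pools and both conditions for each, but do not say which number is which pool.

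Cholangiocytes line the bile ducts, modify bile and renew slowly in a healthy liver. After injury, or when they are embedded in matrix with growth factors, they enter the cell cycle and form hollow organoids that can be turned towards ductal, hepatocyte-like or gut-like gene expression. Division is run in steps: E2F factors switch on the genes of DNA replication, and the genes of mitosis follow later, controlled by the DREAM and MYB-FOXM1 complexes and NF-Y through CHR and CCAAT elements. Enzymes of biotransformation (cytochrome P450 enzymes, transferases and esterases) are a mark of differentiated hepatocytes and of the gut lining.

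Gene expression was measured as counts of 3′-end RNA-seq libraries of whole cultures. The libraries held 14761853, 1885591 and 1776490 counts in domes 1, 2 and 3, and 4185397, 3837619 and 12089655 counts in suspension cultures 1, 2 and 3. Levels are given in CPM, the counts scaled to a common library total after TMM, and differences as the log2 fold-change of dome minus suspension ± its standard error with a Benjamini-Hochberg adj. P-value from edgeR. After TMM, 1 count equals about 0.5 CPM in dome 3, the smallest library, and 0.733 CPM in dome 2. Genes near these levels carry mostly counting noise, and dome 2 values of 0.733 to 2.2 CPM rest on few counts. The 12 cholangiocyte markers were all detected, with summed levels of 7313–12660 CPM in domes and 6347–7017 CPM in suspension. Of 14 hepatocyte markers 10 were detected and 5 could be tested. The sum of the 10 was 272–800.6 CPM in domes and 223.9–592 CPM in suspension. It was mostly Ttr, which made up 267.5 of 462.2 CPM in dome 1, while Alb did not exceed 4.96 CPM. Macrophage markers summed to 6.929–93.11 CPM in domes and 3.367–9.459 CPM in suspension, which was mostly Cd68 apart from suspension culture 3, where Cd68 made up 3.44 of 6.75 CPM, and no macrophage marker below the filter had more than 4 counts. Cd68 had 6.01, 90.2 and 27.5 CPM in domes and 2.74, 8.04 and 3.44 in suspension (log2 fold-change 3.06 ± 0.84, adj. P-value 0.0223), so dome 1 lay within the range of the suspension cultures. Of the endothelial markers only Egfl7 could be tested, with 14.6, 11.7 and 17.6 CPM in domes and 8.21, 8.28 and 8.75 in suspension (0.80 ± 0.24, 0.0295), of the mesenchymal markers only Reln, and no marker of lymphocytes or red cells could. The part of such cells in the results was not tested. With 1 culture omitted, the call was lost for Cd68 (adj. P-value 0.0775–0.1 without dome 2 and suspension cultures 1 and 3) and Egfl7 (0.0583–0.0997 without domes 1 and 3 and suspension cultures 1, 2 and 3). In log2 units the change of Cd68 was 1.64 without dome 2.

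Of 23440 genes in the table, 12699 had enough counts to be tested, and 3779 of them (29.8%) were differentially expressed at an adj. P-value below 0.05. In domes 1907 genes (15%) were higher and 1872 (14.7%) were lower. The total was 1840, 2116 and 1990 without suspension cultures 1, 2 and 3. All 3 domes lay above all 3 suspension cultures for 2740 genes (21.6%) and below them for 3280 (25.8%). The median log2 fold-change of all tested genes was -0.04. These shares are the background for each group of genes described here. In bulk RNA a smaller share of cells of a kind and less RNA per cell cannot be told apart. Among the 10 largest increases of well expressed genes without overlap were those of Cyp2c55, Cyp2c29, Apoa4, Prap1, 9530034E10Rik, Ces2c, Muc13, Apoa1 and Rbp2. They are P450 enzymes and an esterase, apolipoproteins, a mucin and a retinol carrier, apart from Prap1, a secreted protein of the gut lining, and 9530034E10Rik, an antisense transcript whose strand-specific origin is uncertain here. The 10 largest decreases were those of Ccl2, Cenpf, Cenpe, Hells, Zbtb20, Smc2, Sgk1, Malat1, Cenph and Prrc2c. Among them Cenpf, Cenpe and Cenph are kinetochore proteins, and Hells and Smc2 act on chromatin during replication and mitosis.

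**Figure D1:**
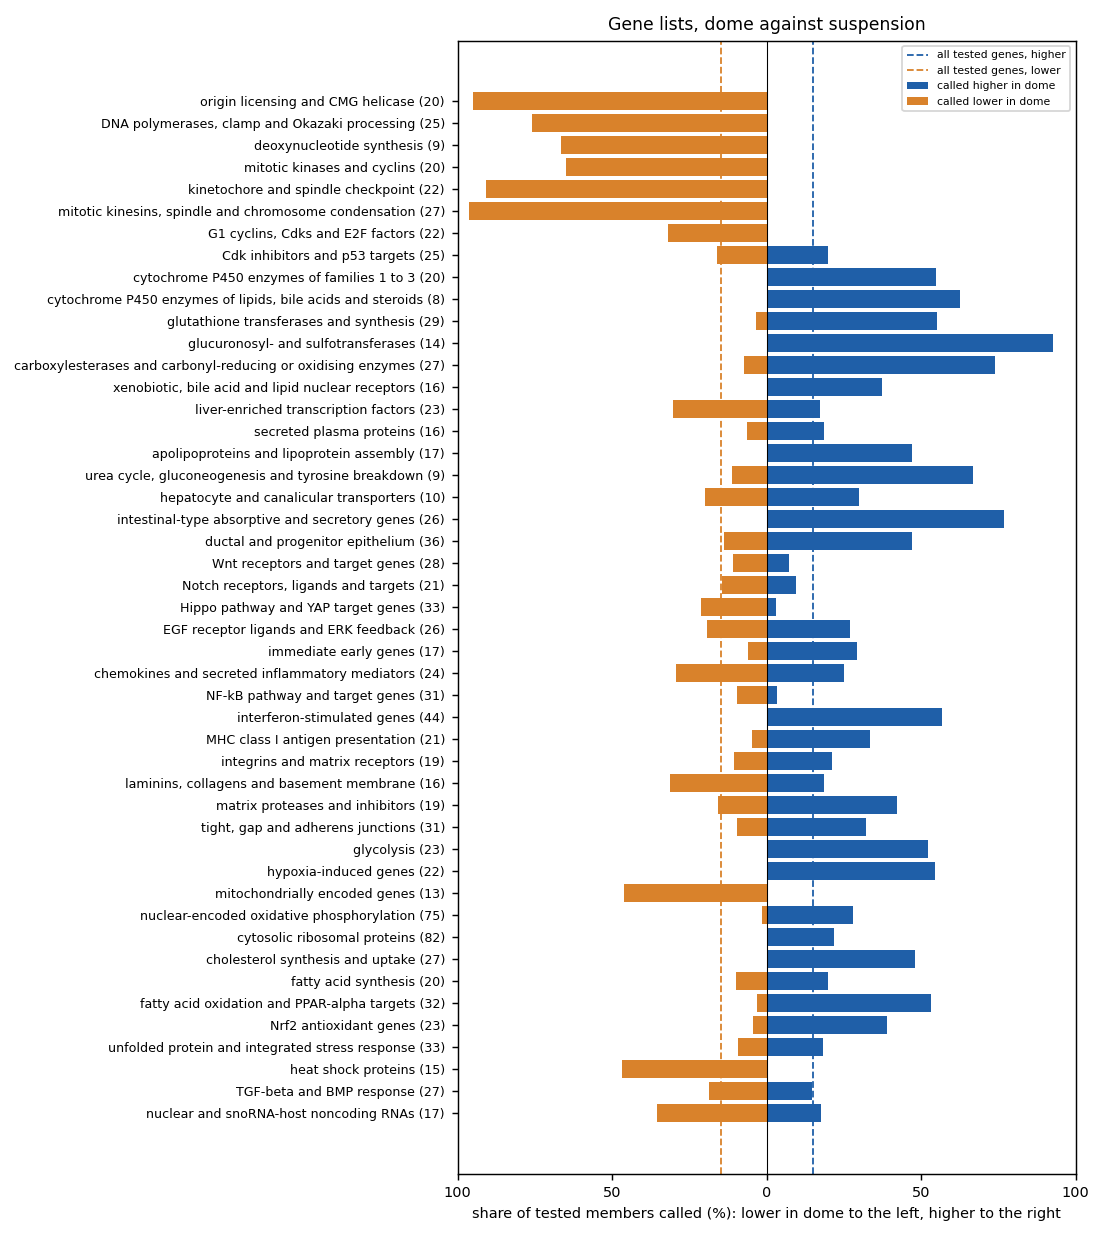
The share of tested members of each gene list called higher (right, blue) or lower (left, orange) in dome than in suspension cultures at an adj. P-value below 0.05, with the number of tested members after each name. The dashed lines mark all 12699 tested genes (15% higher, 14.7% lower), and the lists of DNA replication and mitosis reach furthest to the left, while glucuronosyl- and sulfotransferases and intestinal-type genes reach furthest to the right.

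The genes of DNA replication and mitosis were lower in domes. Of 124 such genes 123 were tested, 103 were called lower and none higher, against 14.7% lower among all tested genes. Their median log2 fold-change was -1.51, and 111 of them lay below every suspension culture in all 3 domes. The count was 0 higher in every setting in which it was repeated for these lists. Promoters of some of these genes are shown first, to show the sequence elements that were counted in both groups. Only promoters holding a searched element were printed, here and for the mitotic genes, so they do not show how common such elements are. Capitals mark E2F-type sites (TTTGGCGC, TTTCCCGC, TTTCGCGC or TTTGCCGC), CHR-type elements (TTTGAA or TTCGAA) and CCAAT boxes on either strand, and all sequences are RefSeq promoter bases upstream of the gene start in GRCm38.p6, 5′ to 3′ on the strand of the gene. Mcm7 lies on the minus strand with the stretch at chr5:138171890-138172071, Pola1 on the minus strand at chrX:93632173-93632308, and Mcm5, a gene chosen for its sites after its values were seen, on the plus strand at chr8:75109341-75109506.
Mcm7: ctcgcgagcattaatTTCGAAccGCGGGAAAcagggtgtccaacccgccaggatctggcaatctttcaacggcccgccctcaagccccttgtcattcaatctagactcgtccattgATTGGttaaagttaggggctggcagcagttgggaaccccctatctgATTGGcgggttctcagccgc
Pola1: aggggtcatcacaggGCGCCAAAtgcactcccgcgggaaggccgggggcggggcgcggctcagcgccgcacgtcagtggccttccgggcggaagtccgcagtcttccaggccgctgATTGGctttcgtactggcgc
Mcm5: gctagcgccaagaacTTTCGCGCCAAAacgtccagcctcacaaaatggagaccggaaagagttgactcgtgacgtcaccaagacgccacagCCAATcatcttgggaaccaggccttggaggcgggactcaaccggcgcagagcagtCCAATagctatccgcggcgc

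For the mitotic genes, the stretch of Ube2c lies at chr2:164769686-164769920 on the plus strand, that of Top2a at chr11:99024192-99024431 on the minus strand, that of Smc2 at chr4:52439061-52439121 on the plus strand and that of Cdk1 at chr10:69352913-69353135 on the minus strand.
Ube2c: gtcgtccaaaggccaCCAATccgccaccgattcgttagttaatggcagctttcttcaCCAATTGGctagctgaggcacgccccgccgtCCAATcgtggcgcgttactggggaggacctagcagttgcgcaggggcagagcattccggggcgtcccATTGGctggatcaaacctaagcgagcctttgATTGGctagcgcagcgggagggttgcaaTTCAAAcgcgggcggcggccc
Top2a: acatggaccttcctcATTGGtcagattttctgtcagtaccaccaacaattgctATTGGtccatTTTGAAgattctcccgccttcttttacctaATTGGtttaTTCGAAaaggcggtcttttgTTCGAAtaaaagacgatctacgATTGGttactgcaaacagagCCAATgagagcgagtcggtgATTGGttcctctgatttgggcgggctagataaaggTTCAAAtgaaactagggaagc
Smc2: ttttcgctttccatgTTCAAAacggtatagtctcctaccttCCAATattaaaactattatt
Cdk1: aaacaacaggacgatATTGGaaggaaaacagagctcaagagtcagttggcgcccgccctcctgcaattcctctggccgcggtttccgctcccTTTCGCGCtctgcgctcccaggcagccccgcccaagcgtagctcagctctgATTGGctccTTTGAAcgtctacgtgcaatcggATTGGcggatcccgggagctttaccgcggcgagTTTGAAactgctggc

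Promoters were compared as windows of 250 bases before to 50 bases after each start. E2F-type sites occurred in 15 of 50 promoters of the replication genes (30.0%) and in 9.38% of the 64 promoters of the mitosis genes, against 4.07% of 11572 promoters of tested genes and 2.26% of all 32851 promoters. CHR-type elements occurred in 44 of 64 mitosis promoters (68.8%) and in 20.0% of replication promoters, against 14.2% of promoters of tested genes and 19.2% of all promoters. CCAAT boxes were found in 71.9% of mitosis and 56.0% of replication promoters, against 37.9% of promoters of tested genes and 37.4% of all promoters. Sites of one kind can overlap, as the 2 E2F-type sites of Mcm5 do. RefSeq promoters matched 44 of 54 tested replication genes and 57 of 69 tested mitosis genes. A match describes letters in these windows and does not show that a factor binds there.

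Genes of licensing, the loading of the MCM helicase onto origins before S phase, were lower in domes. Of 20 genes of origin licensing and the CMG helicase, 19 were called lower, with a median of -1.64 (log2). Mcm7, a subunit of the helicase, had 21.7, 23.5 and 23.6 CPM in domes 1, 2 and 3 and 72, 66.5 and 72 CPM in suspension cultures 1, 2 and 3, a log2 fold-change of -1.62 ± 0.18 (adj. P-value 0.000813). Cdc45, which joins the helicase to make it active, had 4.19, 1.47 and 2.75 CPM in domes and 19.1, 16.6 and 17.3 CPM in suspension (-2.38 ± 0.31, 0.00135, where brackets hold the log2 fold-change with its standard error and the adj. P-value, here and for the genes that follow). Dbf4, the activator of the Cdc7 kinase that fires origins, had 4.95, 2.2 and 6.05 against 21.7, 20.8 and 22.3 CPM (-2.21 ± 0.29, 0.00139). For these genes the suspension cultures lay within a narrow range and the domes far below. Gmnn, whose product geminin blocks a second round of licensing, was lower as well, at -1.31 ± 0.18 (0.00164), with 23.4, 22.7 and 23.1 CPM in domes and 62.1, 54.1 and 56.2 CPM in suspension. Without suspension culture 1, 12 of the 20 were called.

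At the replication fork, 19 of 25 tested genes of polymerases, clamp and Okazaki fragment processing were lower, with a median of -1.24, and all 25 had a negative log2 fold-change. Clspn, the checkpoint mediator claspin, had 2.74, 1.47 and 2.2 CPM in domes and 22.9, 15.8 and 22.9 in suspension (-3.08 ± 0.31, 0.000701). The catalytic subunit of the polymerase that makes primers for both strands, Pola1, had 2.13, 0.733 and 2.2 against 10.9, 8.75 and 8.61 CPM (-2.27 ± 0.34, 0.00222). Lig1, the ligase that joins Okazaki fragments, had 19.7, 21.3 and 24.8 against 68, 55.3 and 53.7 CPM (-1.44 ± 0.20, 0.0017), and Tipin, which protects the fork, 23.6, 18.3 and 25.8 against 65.2, 59.4 and 63.1 CPM (-1.45 ± 0.20, 0.0015). Neither group reached into the other for any of these genes. The number called was 12, 11 and 11 without suspension cultures 1, 2 and 3. Deoxynucleotide synthesis, which feeds the polymerases, was lower in 6 of 9 genes with a median of -1.09, among them Rrm1, Dut, Tk1, Tyms and Dck. Rrm1, the large subunit of ribonucleotide reductase, had 28.4, 19.8 and 29.7 CPM in domes and 65.2, 70.9 and 75.8 in suspension (-1.42 ± 0.21, 0.00196). On omission of 1 culture the call was lost for Dck (adj. P-value 0.0616–0.0622 without dome 1 and suspension culture 3).

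Genes of mitosis were lower in domes from the kinetochore to the condensin complex. Of 27 genes of mitotic kinesins, spindle and chromosome condensation 26 were lower (median -2.25), of 22 kinetochore and checkpoint genes 20 (median -1.88) and of 20 mitotic kinases and cyclins 13 (median -1.40). Cenpf, a large kinetochore protein, had 8.6, 2.2 and 5.5 CPM in domes and 158, 73.8 and 71.3 in suspension (-3.96 ± 0.44, 0.000813). Cenph, part of the inner kinetochore, had 19.6, 8.06 and 6.6 against 92.2, 100.5 and 94.4 CPM (-2.88 ± 0.34, 0.00098), and Incenp, the scaffold of the Aurora B complex, 10.3, 6.6 and 7.15 against 40.8, 35.2 and 37.7 CPM (-2.13 ± 0.24, 0.000813). In each case dome 2 or dome 3 was the lowest culture of all. Smc2, the core of condensin, had 4.34, 2.2 and 5.5 against 49.2, 29.6 and 25.2 CPM (-3.03 ± 0.36, 0.000978), and Ncapd2, another condensin subunit, 6.7, 4.4 and 7.15 against 32.6, 29.1 and 30.1 CPM (-2.27 ± 0.24, 0.00076). Top2a, the topoisomerase that untangles sister chromatids, had 18.2, 14.7 and 27.5 against 96, 73.5 and 82 CPM (-2.06 ± 0.25, 0.00101). Among the kinases Aurka, which drives spindle assembly, had 29.2, 11.7 and 29.1 CPM in domes and 89.6, 88.9 and 106 in suspension (-1.97 ± 0.29, 0.00204). Ube2c, the E2 enzyme of the anaphase-promoting complex, had 83.9, 49.9 and 97.3 against 231, 224 and 208 CPM (-1.51 ± 0.24, 0.00295). The called counts of these 3 mitotic lists moved by less than 1.5 times when any 1 culture was omitted.

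**Figure D2:**
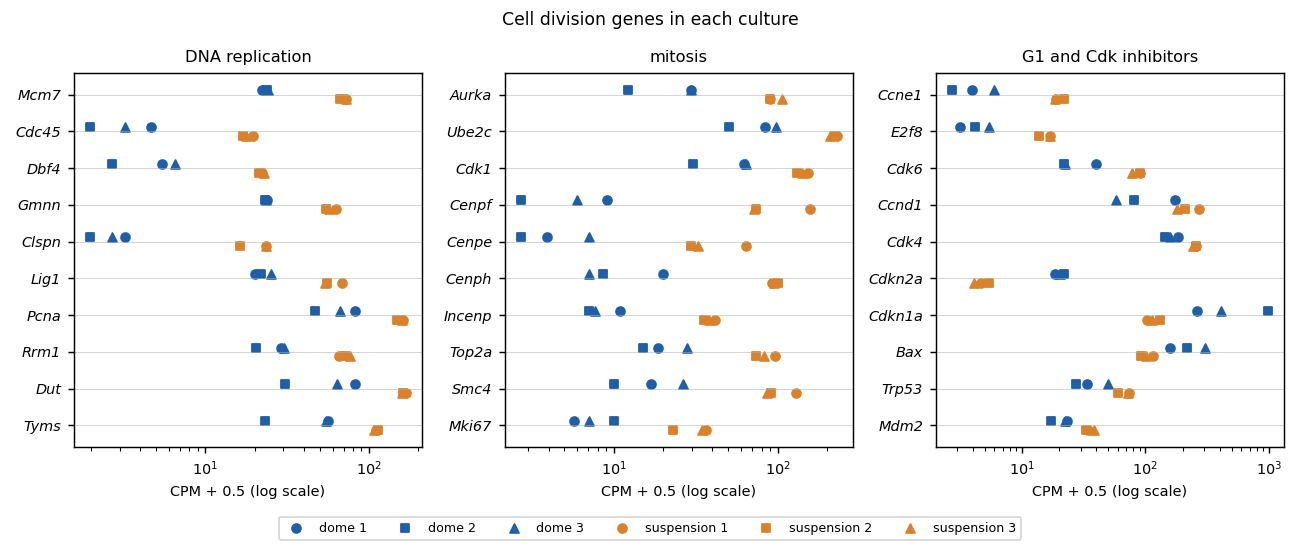
Levels of division genes in each of the 6 cultures, as CPM plus 0.5 on a log axis, with blue symbols for domes and orange for suspension cultures and the symbol shape giving the culture number. Dome symbols lie to the left of suspension symbols for the replication and mitosis genes drawn, while Cdkn1a and Cdkn2a lie to the right.

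Fewer genes of the G1 machinery were called. Of 22 cyclins, Cdks and E2F factors of G1, 7 were lower (Ccne1, E2f8, Cdk6, Ccne2, E2f7, Cdk4 and E2f3) and none was higher, with a median of -0.62. The share called was 31.8%, beside 29.8% of all tested genes. Ccne1, the cyclin that starts S phase, had 3.43, 2.2 and 5.5 CPM in domes and 18.5, 21.3 and 18.1 in suspension (-2.38 ± 0.30, 0.00117), and E2f8, a repressor of the E2F family, 2.67, 3.67 and 4.95 against 16.4, 13.2 and 16.5 CPM (-2.20 ± 0.31, 0.00169). Cdk6 was lower with 39.4, 21.3 and 22 against 90.1, 89.4 and 77.7 CPM (-1.57 ± 0.26, 0.00297). Without suspension culture 1 or 3, 4 genes were called lower, and without dome 2 or with the replicate block 1 was called higher. Of 25 Cdk inhibitors and p53 targets, 5 were higher and 4 lower, so 36% were called, beside 29.8% of all tested genes. Cdkn2a, whose locus encodes p16 and p19 and which 3′-end counts do not separate, had 18.1, 21.3 and 19.8 CPM in domes and 4.21, 4.97 and 3.58 in suspension (2.22 ± 0.25, 0.000817). Cdkn1a, encoding p21, had 263, 985 and 407 against 102, 131 and 113 CPM, highest in dome 2 (2.25 ± 0.42, 0.00499). Bax, Sesn2 and Pmaip1 were the other genes called higher, while Trp53, Mdm2, Ccng1 and Plk2 were lower, Trp53 itself at -0.90 ± 0.24 (0.0188). Without any 1 of the suspension cultures 3 of these were called higher and at most 1 lower, and without dome 3 lower calls were 2. Calls lost when 1 culture was left out were those of Trp53 (adj. P-value 0.0505–0.0778 without dome 1 and suspension cultures 1 and 3), E2f7 (0.0716–0.23 without dome 1 and suspension cultures 1 and 3), Cdk4 (0.0822–0.106 without suspension cultures 1, 2 and 3), E2f3 (0.0611–0.138 without domes 1 and 3 and suspension cultures 1, 2 and 3), Sesn2 (0.0542–0.0756 without suspension cultures 1, 2 and 3), Pmaip1 (0.058–0.0876 without dome 2 and suspension cultures 1, 2 and 3), Mdm2 (0.0632–0.0987 without suspension cultures 1, 2 and 3), Ccng1 (0.055–0.0956 without dome 3 and suspension cultures 1, 2 and 3) and Plk2 (0.0535–0.139 without dome 3 and suspension cultures 1, 2 and 3). On the log2 scale the change of E2f7 was -1.30 without dome 1 and that of Pmaip1 was 0.96 without dome 2.

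Enzymes of biotransformation were higher in domes. Of 152 genes in the lists of P450 enzymes of families 1 to 3, glutathione transferases, glucuronosyl- and sulfotransferases and carboxylesterases with carbonyl-modifying enzymes, 22 were not in the table and 40 had too few counts, and of the 90 tested 60 were called higher and 3 lower, against 15% and 14.7% of all tested genes. Their median log2 fold-change was 1.54, and 58 of the 90 lay above every suspension culture in all domes, although genes seen mainly in one group pass a count filter more easily where they are high. Families with close paralogs (Cyp2c, Ces2, Akr1c, Gsta and Ugt) can share 3′-end reads, so their single values are uncertain.

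The list of P450 enzymes of families 1 to 3, which carry out phase I oxidation, also held their reductase gene Por. Of its 20 tested members 11 were higher and none lower, with a median of 1.83. Cyp3a13, a drug- and steroid-oxidising enzyme of liver and gut, had 328, 166 and 256 CPM in domes and 30.9, 27.2 and 38 in suspension (2.96 ± 0.28, 0.000597). Cyp2c65 had 99.6, 43.3 and 51.7 against 7.79, 4.97 and 9.85 CPM (3.10 ± 0.36, 0.000957), and Cyp2c55 219, 21.3 and 11.6 against 1.68, 1.18 and 1.31 CPM (6.00 ± 1.07, 0.00432). Both enzymes belong to the Cyp2c cluster, whose members oxidise drugs and arachidonic acid, and dome 1 was the highest culture for each. Por, the reductase that feeds electrons to all microsomal P450 enzymes, was higher with 77.9, 142 and 94.6 CPM in domes and 29.2, 25.3 and 27.7 in suspension (1.92 ± 0.24, 0.00125). The other genes called were Cyp2c29, Cyp2j6, Cyp2s1, Cyp2c66, Cyp2b10, Cyp2c68 and Cyp2d26. With no filter on counts 18 were called higher. Of 8 tested P450 and related enzymes of lipids, bile acids and steroids 5 were higher and none lower, with 1 lower under the replicate block. Cyp4b1, an omega-hydroxylase, had 177, 221 and 219 against 50.5, 40.2 and 25.1 CPM (2.42 ± 0.27, 0.000813), and Ephx2, which hydrolyses lipid epoxides, 71.3, 52.1 and 55 against 21, 22.9 and 16.1 CPM (1.60 ± 0.22, 0.00164). Cyp4f14 rested on 1 culture, with 149, 3.67 and 2.2 CPM in domes against 5.89, 2.6 and 7.23 CPM in suspension, and its log2 fold-change of 3.37 ± 1.12 (0.0458) became -0.96 (adj. P-value 0.271) without dome 1 and 2.01 (0.108) with the replicate number as a block. Cyp4f13 and Cyp4f16 completed the called genes of that list, in which 3 genes were called higher without dome 1 or without suspension culture 1 or 2, and 2 lower without dome 1. The omission of a single culture removed the calls of Cyp4f14 (adj. P-value 0.115–0.139 without suspension cultures 1, 2 and 3) and Cyp4f16 (0.0742–0.0917 without dome 1 and suspension cultures 1 and 2). The log2 fold-change of Cyp2c55 was 3.53 without dome 1, that of Cyp2c66 was 3.55 without dome 1, that of Cyp2b10 was 2.52 without dome 1 and that of Cyp2d26 was 2.09 without dome 1.

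Genes of conjugation were higher in domes. Of 29 genes of glutathione transferases and synthesis 16 were higher and only Gpx2 was lower (median 0.93). Gsta1, an abundant alpha-class transferase, had 2164, 3297 and 1992 CPM in domes and 162, 226 and 200.3 in suspension (3.67 ± 0.29, 0.000367). Mgst3, a microsomal transferase, had 1039, 1919 and 1142 against 349, 288 and 237 CPM (2.23 ± 0.29, 0.00139). Gpx2, the glutathione peroxidase of gut epithelium, had 213, 210.4 and 179 against 495, 504 and 485 CPM (-1.30 ± 0.19, 0.00186). Of 14 tested glucuronosyl- and sulfotransferases 13 were higher and none lower (median 1.97). Sult1c2 had 649.9, 485 and 576 against 155, 136 and 107 CPM (2.10 ± 0.22, 0.000773), and Sult1b1, another cytosolic sulfotransferase, 42.6, 5.13 and 6.05 against 1.26, 0.946 and 1.38 CPM (4.05 ± 0.76, 0.00487). Sult1b1 was highest in dome 1, and Sult1c2 was even across domes. The counts were 8 and 10 of the 16 glutathione genes without suspension cultures 1 and 2, and 7, 8 and 7 of the 13 transferases without dome 1 and suspension cultures 2 and 3. In log2 units the change of Sult1b1 was 2.15 without dome 1.

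Of 27 tested carboxylesterases and carbonyl-reducing or oxidising enzymes 20 were higher and 2 lower, with a median of 1.85. Akr1b7, an aldo-keto reductase, had 50.9, 82.1 and 83 CPM in domes and 4, 6.15 and 4.41 in suspension (3.89 ± 0.28, 0.000249). Aldh2, the mitochondrial acetaldehyde dehydrogenase, had 213, 159.8 and 181 against 44.6, 51.8 and 65.5 CPM (1.77 ± 0.21, 0.00103). The gut-type esterase Ces2c had 463, 60.9 and 39 against 7.37, 5.44 and 5.51 CPM (4.99 ± 0.87, 0.00394). The 2 genes that went the other way were Akr1b3, the aldose reductase, with 37.8, 19.1 and 34.1 against 107, 83.5 and 87 CPM (-1.56 ± 0.25, 0.00295), and Aldh1a3, which makes retinoic acid, with 0.609, 0 and 0 against 2.95, 1.42 and 3.79 CPM (-2.62 ± 0.66, 0.0159). As Aldh1a3 had 0 counts in domes 2 and 3, no fold-change is given for it without dome 1. Without suspension culture 2, 13 genes of this list were called higher. The number was 14 without dome 1, without suspension culture 1 or 3, and in thinned libraries. Among nuclear receptors that control these enzymes 6 of 16 tested were higher and none lower (median 0.72), namely Rxrb, Nr1i2, Pparg, Nr1h4, Vdr and Rxra. Nr1i2, the xenobiotic receptor PXR, was low in all cultures, with 3.81, 7.33 and 3.85 CPM in domes and 0.421, 1.18 and 1.1 in suspension (2.25 ± 0.47, 0.0075). Nr1h4, the bile acid receptor FXR, had 17.1, 8.06 and 8.25 against 4.63, 6.15 and 5.37 CPM (1.19 ± 0.33, 0.0235). Without any 1 of the suspension cultures, or in thinned libraries, 3 of the 6 receptors were called. Leaving out a single culture removed the calls of Aldh1a3 (adj. P-value 0.0834 without suspension culture 3), Nr1h4 (0.0605–0.201 without dome 1 and suspension cultures 1, 2 and 3), Pparg (0.0504 without suspension culture 3), Vdr (0.0733–0.221 without domes 1 and 3 and suspension cultures 1 and 2) and Rxra (0.0621–0.132 without domes 1 and 2 and suspension cultures 1, 2 and 3). On the log2 scale the change of Ces2c was 3.03 without dome 1 and that of Nr1h4 was 0.60 without dome 1.

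Genes of hepatocyte function were divided. Of 23 tested liver-enriched transcription factors 4 were higher (Atoh8, Creb3l3, Foxa3 and Klf15) and 7 lower (Zbtb20, Zhx2, Nfia, Onecut2, Sox4, Nfib and Onecut1). Zbtb20, a repressor of Afp in adult liver, had 5.56, 7.33 and 3.3 CPM in domes and 35.8, 40.9 and 60.3 in suspension (-3.10 ± 0.32, 0.000701), and Zhx2, another repressor of Afp, 2.82, 3.67 and 3.3 against 25, 26 and 17.9 CPM (-2.89 ± 0.29, 0.000701). Creb3l3, an endoplasmic reticulum-bound factor of lipid metabolism, had 18.7, 4.4 and 9.35 against 1.05, 0.236 and 1.51 CPM (3.46 ± 0.56, 0.00282). Without dome 3 or any 1 of the suspension cultures 2 of the 4 higher factors were called. Of 50 secreted plasma proteins only 16 could be tested, of which 3 were higher (Ambp, Mup20 and Fgb) and 1 lower (Gc), with a median of -0.39. The share called was 25%, beside 29.8% of all tested genes. In that list 3 were lower with the replicate number as a block or without dome 3, and 2 without suspension culture 1. Ambp, the precursor of alpha-1-microglobulin, had 291, 439 and 594 against 99.5, 118 and 95.4 CPM (2.08 ± 0.27, 0.00135). Gc, the vitamin D carrier, was lower with 109.9, 51.3 and 51.1 against 288, 232 and 355 CPM (-2.01 ± 0.32, 0.00277). Mup20, a member of a family of near-identical urinary proteins and so uncertain, had 6261, 1649 and 3748 against 666, 356 and 415 CPM (3.02 ± 0.47, 0.00251). Albumin had 0.914, 2.2 and 3.85 CPM in domes and 0.21, 2.13 and 4.96 CPM in suspension, and transthyretin 268, 262 and 768 against 462, 216 and 583 CPM. Neither passed the test, and the groups overlapped for both. The calls of Foxa3 (adj. P-value 0.07–0.107 without domes 2 and 3 and suspension cultures 1, 2 and 3), Klf15 (0.0672–0.159 without dome 3 and suspension cultures 1, 2 and 3), Onecut1 (0.0697–0.123 without dome 1 and suspension cultures 1 and 2) and Fgb (0.0534–0.166 without domes 2 and 3 and suspension cultures 1, 2 and 3) were lost on omission of 1 culture. The log2 fold-change of Klf15 was 1.25 without dome 3 and that of Fgb was 1.27 without dome 3.

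Lipoprotein genes were higher but uneven among domes. Of 17 tested apolipoproteins and assembly factors 8 were higher and none lower (median 1.24). Tm6sf2, which takes part in the lipidation of lipoproteins, had 28.8, 11 and 14.8 CPM in domes and 1.89, 1.18 and 1.51 in suspension (3.66 ± 0.41, 0.000813). Apoa4, of chylomicrons, had 80.4, 2.93 and 5.5 against 0.421, 0.473 and 1.03 CPM (5.44 ± 1.11, 0.00683), and Apoa1, of high-density lipoprotein, 159, 4.4 and 12.1 against 2.74, 2.37 and 1.51 CPM (4.94 ± 1.09, 0.00925). Both were far higher in dome 1 than in the other domes. Apoe was lowest in dome 1, with 18.6, 1161 and 1229 CPM in domes and 14.5, 110.2 and 212 in suspension (2.83 ± 1.18, 0.0964), as was its neighbour Apoc1 with 3.65, 334 and 250.2 against 6.73, 16.8 and 50.0 CPM (2.92 ± 1.15, 0.0797). For these neighbouring genes culture 1 was the lowest of its group in both conditions, and with the replicate number as a block both were called higher, Apoe at 2.22 (adj. P-value 0.00291) and Apoc1 at 2.25 (0.022). Without suspension cultures 1, 2 and 3 the lipoprotein genes called higher were 5, 4 and 4, with no filter 14, and with a minimum count of 10 they were 5, while 1 was called lower without dome 1 or with the replicate block. Of 9 tested genes of the urea cycle, gluconeogenesis and tyrosine breakdown 6 were higher and 1 was lower, and the lower call was absent without dome 3 or any 1 of the suspension cultures. Pcx, pyruvate carboxylase, had 29.1, 31.5 and 41.8 against 4.63, 7.57 and 5.92 CPM (2.49 ± 0.26, 0.00076), and Ass1, of the urea cycle, 124, 304 and 101 against 12.4, 27 and 11.8 CPM (3.38 ± 0.47, 0.0017). Among transporters Abcc3, an exporter of bile acids and glucuronides across the basolateral membrane, had 217, 409.8 and 411 against 78.1, 83.2 and 91.3 CPM (2.03 ± 0.27, 0.00138), while the phosphate transporter gene Slc17a1 had 0.457, 0.733 and 0.55 against 10.9, 4.26 and 9.92 CPM (-4.04 ± 0.54, 0.00149). In log2 units the change of Apoa4 was 2.48 without dome 1 and that of Apoa1 was 2.05 without dome 1.

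Genes typical of the gut lining showed the highest median of the lists. Of 42 intestinal-type genes 26 were tested, 20 were higher and none lower (median 2.75), and without 1 culture the count stayed between 15 and 20. Summed levels of the list were 11350, 9718 and 11410 CPM in domes and 2761, 1429 and 1932 CPM in suspension. Rbp2, the retinol carrier of enterocytes, had 335, 175 and 284 CPM in domes and 11.4, 9.7 and 6.54 in suspension (4.88 ± 0.33, 0.000218). Guca2a, encoding guanylin, had 29.3, 27.1 and 21.4 against 1.89, 1.18 and 1.93 CPM (3.90 ± 0.29, 0.000249). Krt20, a keratin of mature gut cells, had 1025, 1405 and 1162 against 203, 213 and 102 CPM (2.80 ± 0.31, 0.000813), and the membrane mucin Muc13 66.7, 13.9 and 33 against 1.05, 0.709 and 1.65 CPM (4.95 ± 0.56, 0.000848). For these genes no dome overlapped with suspension. Trefoil and antimicrobial peptides were less even, with Tff1 at 1.83, 242 and 553 CPM in domes and 5.05, 2.13 and 2.27 in suspension (6.43 ± 1.47, 0.0105), where dome 1 lay below every suspension culture, and Reg3b at 166, 6.6 and 5.5 against 1.26, 2.37 and 7.03 CPM (3.98 ± 1.12, 0.024). The value of Reg3b rested on dome 1 and was 0.54 (adj. P-value 0.609) without it, and 2.81 (0.0518) with the replicate block. The gut master regulator Cdx2 was among the called genes, with 52.7, 8.06 and 30.8 CPM in domes and 6.73, 4.02 and 4.48 in suspension (2.7 ± 0.51, 0.00517), and was picked for mention after its values were seen. With 1 culture omitted, the call was lost for Reg3b (adj. P-value 0.0825–0.0866 without suspension cultures 1 and 2).

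**Figure D3:**
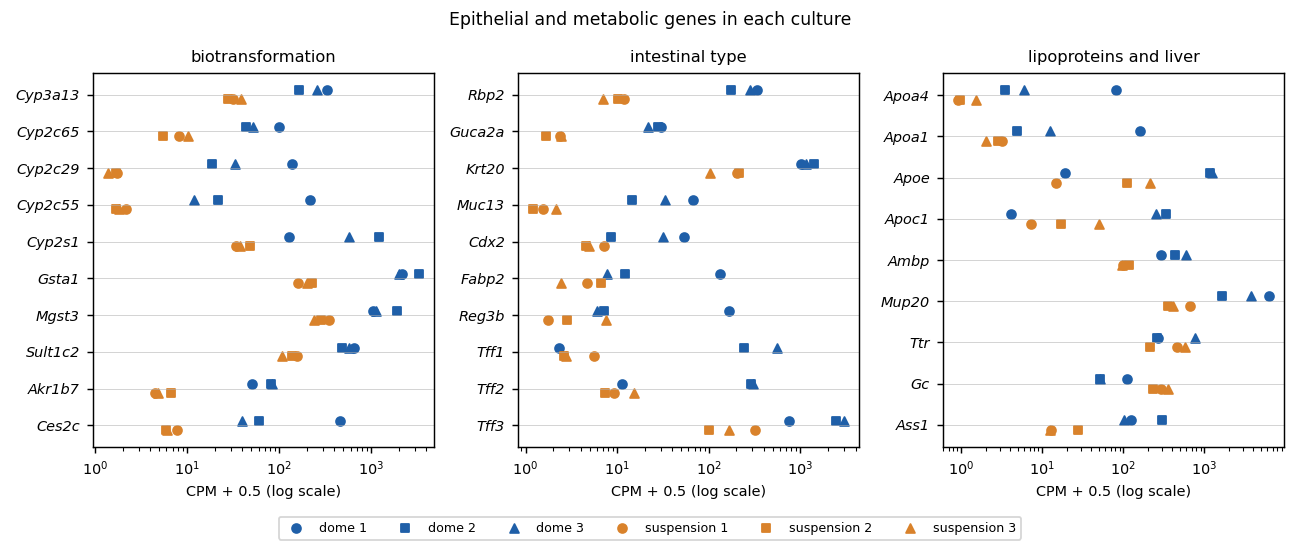
Levels of biotransformation, intestinal-type and lipoprotein or liver genes in each culture, as CPM plus 0.5 on a log axis, with blue symbols for domes, orange for suspension cultures and the symbol shape for the culture number. Dome circles (culture 1) stand apart to the right for Apoa4, Apoa1 and Reg3b and to the left for Tff1 and Apoe.

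Ductal genes moved in both directions. Of 36 tested genes of ductal and progenitor epithelium 17 were higher and 5 lower (median 0.39). Krt19, a keratin of bile ducts, had 2618, 6371 and 3286 CPM in domes and 959, 1163 and 956 in suspension (2.00 ± 0.35, 0.00381). Cldn3, a tight junction claudin, had 694, 1169 and 650.5 against 253, 227 and 196 CPM (1.9 ± 0.27, 0.00174), and Ly6d 3787, 6858 and 6243 against 1271, 1485 and 1324 CPM (2.05 ± 0.29, 0.00174). In contrast Spp1, the matrix protein osteopontin, had 565, 756 and 1541 CPM in domes and 2855, 3016 and 2872 in suspension (-1.61 ± 0.35, 0.00915), and Bicc1, an RNA-binding protein of tubular epithelia, 14.7, 8.06 and 18.7 against 40.8, 33.8 and 62.1 CPM (-1.70 ± 0.32, 0.0049). Of the 12 cholangiocyte markers 6 were called higher, Krt19, Cldn7, Tspan8, Cldn4, Krt7 and Cd24a, and 1 lower, Spp1. The other 5 markers were not called. Among them Epcam, Sox9, Cdh1 and Cftr had log2 fold-changes of -0.10 ± 0.22, -0.12 ± 0.22, -0.25 ± 0.20 and -0.02 ± 0.30. Epcam had 483, 380.5 and 298 CPM in domes and 393, 417 and 432 in suspension, and Sox9 54.7, 90.2 and 81.9 against 86.5, 86.5 and 71.5 CPM, so the groups overlapped. Without suspension cultures 1, 2 and 3 the ductal and progenitor genes called higher were 6, 9 and 9. Those called lower were 3 without dome 1 and 2 without suspension culture 1. The cholangiocyte markers called higher were 5 without dome 2, and 1, 2 and 2 without suspension cultures 1, 2 and 3.

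Hypoxia-induced and glycolytic genes were higher in domes and highest in dome 2. Cells that lack oxygen stabilise HIF, which binds short sites with a core searched here as ACGTG on either strand. Of 57 promoters of 38 matched genes of both lists 31 held that motif (54.4%), against 25.8% of promoters of tested genes and 19.6% of all promoters. This motif, and the promoters of Pgk1 and Bnip3 with it in capitals, were chosen after expression values were seen. The stretch of Bnip3 lies at chr7:138909594-138909629 on the minus strand and that of Pgk1 at chrX:106186935-106186988 on the plus strand, both in GRCm38.p6 and from RefSeq.
Bnip3: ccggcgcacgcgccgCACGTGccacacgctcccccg
Pgk1: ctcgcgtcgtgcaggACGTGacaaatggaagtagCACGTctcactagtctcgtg

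Of 22 hypoxia-induced genes 12 were higher and none lower (median 1.08), and of 23 glycolytic genes 12 were higher and none lower (median 1.01). Bnip3, a HIF target of mitophagy, had 30.6, 97.5 and 38.5 CPM in domes and 4, 5.67 and 4.48 in suspension (3.52 ± 0.44, 0.00119). Ankrd37, another HIF target, had 97.3, 176 and 96.8 against 12.8, 13 and 10.3 CPM (3.36 ± 0.28, 0.000507), and Egln3, the oxygen sensor that HIF itself switches on, 201, 466 and 348 against 88.6, 83.7 and 89.5 CPM (1.95 ± 0.29, 0.00202). Dome 2 was the highest culture for each of these genes, and all suspension cultures were lower than all domes. In glycolysis Aldoc, an aldolase, had 63.5, 185 and 90.7 against 18.3, 25.3 and 20.8 CPM (2.37 ± 0.36, 0.00237), Pfkfb3, which activates phosphofructokinase, 11.1, 53.5 and 33.5 against 3.79, 4.02 and 5.1 CPM (2.79 ± 0.51, 0.00464), and Hk1, a hexokinase, 32, 55 and 47.8 against 20.0, 18 and 19.6 CPM (1.20 ± 0.24, 0.00596). Summed over the list, hypoxia-induced genes made up 1075, 3035 and 1578 CPM in domes and 612.5, 720.5 and 615.5 CPM in suspension. Without 1 culture 9–14 hypoxia genes were called higher, and 7 glycolytic genes without suspension culture 1 or 3, while 1 gene of each list was called lower without dome 2.

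Mitochondrial genes of the organelle were lower and some of those of the nucleus higher in domes. Counts of mitochondrially encoded genes made up 1.64–2.02% of the dome libraries and 3.72–4.02% of the suspension libraries. Of 13 tested mitochondrially encoded genes 6 were lower and none higher (median -0.68), while of 75 nuclear genes of oxidative phosphorylation 21 were higher and 1 lower (median 0.49). The share called in the nuclear list was 29.3%, beside 29.8% of all tested genes, of which 15% were higher and 14.7% lower. mt-Nd4, a subunit of complex I made in the organelle, had 1731, 1878 and 1478 CPM in domes and 3329, 3337 and 3443 in suspension (-0.99 ± 0.23, 0.0107). Ndufs7, a nuclear subunit of the same complex, had 282, 336 and 336 against 145, 165 and 146 CPM (1.07 ± 0.18, 0.00378), and Cycs, cytochrome c, 204, 96 and 129.8 against 259.9, 276 and 232 CPM (-0.82 ± 0.27, 0.0417). Of 82 cytosolic ribosomal proteins 18 were higher and none lower (median 0.53), so 22% were called, a share below that of all tested genes. Rpl35 had 2566, 4980 and 2463 against 1315, 1412 and 1173 CPM (1.36 ± 0.31, 0.0106). These counts were not stable. They fell to 0, 0 and 1 for mitochondrially encoded genes, to 3, 4 and 3 for oxidative phosphorylation and to 1, 2 and 1 for ribosomal proteins without suspension cultures 1, 2 and 3, and rose to 32 for oxidative phosphorylation without dome 2 and 53 for ribosomal proteins without dome 3. The 1 lower call in oxidative phosphorylation was lost without dome 2, dome 3 or any 1 of the suspension cultures, and 1 ribosomal protein was called lower without dome 1 or with the block. On omission of 1 culture the call was lost for mt-Nd4 (adj. P-value 0.052–0.0639 without suspension cultures 1, 2 and 3), Cycs (0.0687–0.128 without domes 2 and 3 and suspension cultures 1, 2 and 3) and Rpl35 (0.0571–0.0585 without suspension cultures 1 and 3).

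Several lists of lipid metabolism held genes that were higher in domes. Of 32 tested genes of fatty acid oxidation and PPAR-alpha targets 17 were higher and 1 lower (median 0.67), and 3 were lower with the replicate block and none without dome 3 or suspension culture 2. Acaa1a, the peroxisomal thiolase, had 131, 138 and 149 CPM in domes and 45.5, 47.8 and 49.2 in suspension (1.55 ± 0.17, 0.000817). Of 27 cholesterol genes 13 were higher and none lower (median 0.53), among them Fdft1, squalene synthase, with 382, 476 and 405 against 227, 223 and 240 CPM (0.87 ± 0.19, 0.00831). Of 20 genes of fatty acid synthesis 4 were higher and 2 lower, the latter Elovl6 and Mlxipl, so 30% were called, beside 29.8% of all tested genes. The higher calls were 2 without suspension culture 1 or 2, and the lower calls 0 without suspension culture 1 or 3, 1 without dome 1 and 4 without dome 3. Dgat2, which makes triglycerides, had 93, 139 and 146 against 34.3, 28.1 and 32.3 CPM (1.98 ± 0.22, 0.000847), and Mlxipl, the carbohydrate-response factor ChREBP, 1.22, 0.733 and 1.65 against 3.58, 2.37 and 4.41 CPM (-1.53 ± 0.44, 0.0257). The oxidation genes called higher were 9, 9 and 9 without suspension cultures 1, 2 and 3, and the cholesterol genes 3, 3 and 5 in the same order, with 1 cholesterol gene lower without dome 1 or with the block. Of 23 Nrf2 antioxidant genes 9 were higher and 1 lower (median 0.57). Hmox1, heme oxygenase, had 15.3, 49.9 and 31.9 against 2.95, 2.84 and 2.13 CPM (3.58 ± 0.45, 0.00117), and Slc7a11, the cystine importer, 8.83, 11.7 and 15.4 against 21.2, 28.6 and 29.9 CPM (-1.23 ± 0.27, 0.00919). The Nrf2 genes called higher were 3, 5 and 5 without suspension cultures 1, 2 and 3. Calls lost when 1 culture was left out were those of Fdft1 (adj. P-value 0.0517–0.0519 without suspension cultures 1 and 2), Mlxipl (0.0745–0.137 without dome 1 and suspension cultures 1 and 3) and Elovl6 (0.066–0.0808 without suspension cultures 1 and 3).

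Interferon-stimulated genes were higher in domes. These genes answer interferons through STAT and IRF factors, which bind the ISRE, searched here on either strand as GAAA, any 2 bases and GAAA. It occurred in 19 of 39 promoters of 34 matched interferon genes (48.7%), against 2.83% of promoters of tested genes and 3.44% of all promoters. The motif and its genes were chosen after values were seen. The stretch of Isg15 lies at chr4:156200860-156200911 on the minus strand and that of Ifit1 at chr19:34640770-34640828 on the plus strand in GRCm38.p6, from RefSeq, and capitals mark the motif.
Isg15: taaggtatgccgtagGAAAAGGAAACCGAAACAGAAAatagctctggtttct
Ifit1: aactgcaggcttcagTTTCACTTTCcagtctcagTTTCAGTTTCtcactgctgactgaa

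Of 44 tested interferon-stimulated genes 25 were higher and none lower (median 1.10). Oasl1, an antiviral protein of the OAS family, had 38, 125 and 76.4 CPM in domes and 7.79, 6.38 and 7.78 in suspension (3.39 ± 0.40, 0.000978). Irf7, the factor that amplifies interferon production, had 50.6, 209.7 and 36.3 against 5.05, 4.73 and 5.1 CPM (4.27 ± 0.62, 0.00201). Isg15, a ubiquitin-like modifier, had 17.1, 70.4 and 13.2 against 1.05, 1.66 and 2.07 CPM (4.2 ± 0.65, 0.00248), and Ifit1, which binds viral RNA, 11, 21.3 and 3.85 against 1.05, 0.236 and 0.964 CPM (3.78 ± 0.60, 0.00265). As for the hypoxia genes, dome 2 was the highest culture, and the summed list reached 1377, 2461 and 1214 CPM in domes against 749.3, 777.5 and 786.1 CPM in suspension. Without suspension cultures 1, 2 and 3 the genes called were 15, 15 and 14. In MHC class I presentation 7 of 21 genes were higher and 1 lower (median 0.55). H2-D1, a classical class I gene with close paralogs, had 301, 403 and 373 against 204, 159 and 201 CPM (0.93 ± 0.20, 0.00913), and H2-Q7 moved down with 2.82, 2.2 and 1.1 against 6.94, 6.15 and 5.03 CPM (-1.33 ± 0.36, 0.0218). The class I genes called higher were 3, 2 and 4 under the same omissions, and none was lower without suspension culture 1 or 2. The omission of a single culture removed the calls of H2-D1 (adj. P-value 0.058 without suspension culture 2) and H2-Q7 (0.0627–0.0814 without suspension cultures 1 and 2).

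Secreted inflammatory mediators moved in both directions. Of 24 tested chemokines and mediators 6 were higher (Saa1, Saa3, Il18, Cx3cl1, Ccl28 and Ccl5) and 7 lower (Ccl2, Ccl7, Cxcl3, Cxcl1, Cxcl2, Spp1 and Cxcl5). Ccl2, which attracts monocytes, had 4.57, 8.06 and 1.65 CPM in domes and 205, 62 and 42.6 in suspension, highest in suspension culture 1 (-4.49 ± 0.67, 0.00214). The neighbouring monocyte chemokine Ccl7 had 0.457, 0.733 and 0.55 against 13.1, 4.02 and 4.96 CPM (-3.80 ± 0.66, 0.00392), and Cxcl1, which attracts neutrophils, 66.1, 50.6 and 36.8 against 159, 96.5 and 113 CPM (-1.24 ± 0.27, 0.00831). Saa3, an acute-phase protein, had 12.6, 85 and 9.35 against 1.68, 0.709 and 1.24 CPM (4.72 ± 0.87, 0.00462). Of 31 NF-kB pathway and target genes 1 was higher (Tnfrsf1a) and 3 were lower (Cd14, Vcam1 and Nfkbiz), so 12.9% were called, beside 29.8% of all tested genes. Cd14, the co-receptor for lipopolysaccharide, had 274, 118 and 178 against 645, 515 and 587 CPM (-1.60 ± 0.29, 0.00453). Without dome 1, 5 genes of that list were called higher, with the replicate block 2, and without any 1 of the suspension cultures none. Leaving out a single culture removed the calls of Ccl28 (adj. P-value 0.0667–0.139 without dome 1 and suspension cultures 1, 2 and 3), Ccl5 (0.0623–0.337 without domes 2 and 3 and suspension cultures 1, 2 and 3), Cxcl5 (0.0957–0.155 without suspension cultures 1, 2 and 3), Tnfrsf1a (0.0567–0.0959 without suspension cultures 1, 2 and 3) and Nfkbiz (0.0676–0.0936 without dome 1 and suspension cultures 1 and 3). On the log2 scale the change of Ccl5 was 1.52 without dome 2.

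**Figure D4:**
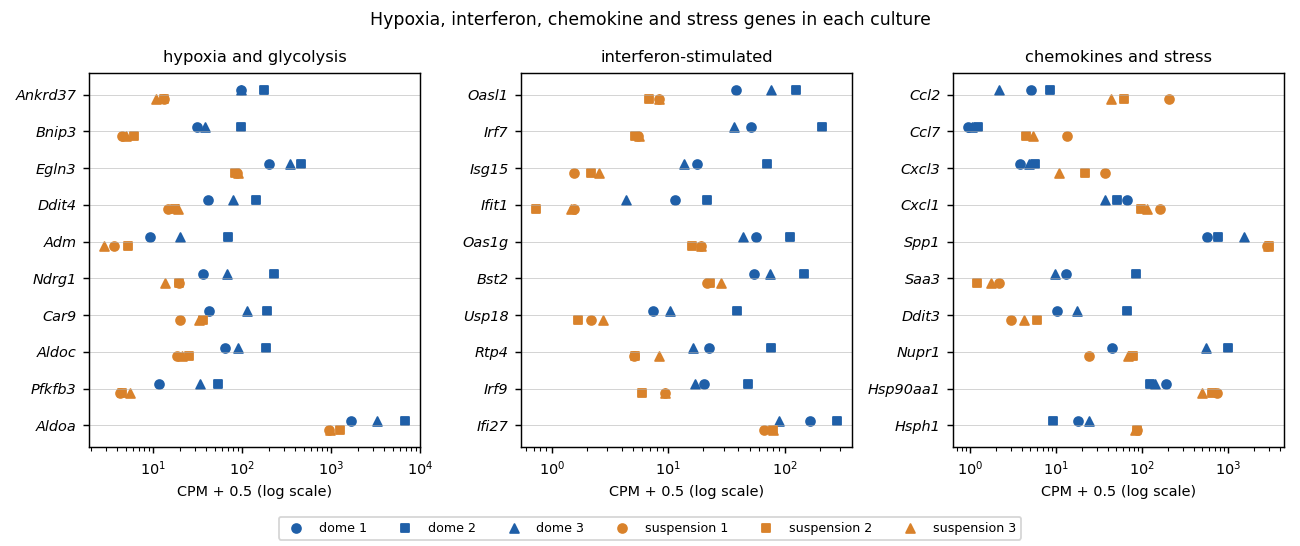
Levels of hypoxia and glycolysis, interferon-stimulated, and chemokine and stress genes in each culture, as CPM plus 0.5 on a log axis, with blue symbols for domes, orange for suspension cultures and the symbol shape for the culture number. Dome 2 (blue squares) is the rightmost culture for the genes of the first pair of panels, and Ccl2, Ccl7, Cxcl3, Cxcl1, Spp1, Hsp90aa1 and Hsph1 lie to the left in domes.

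Heat shock proteins were lower in domes, with 7 of 15 called lower and none higher (median -0.74), and 5–9 called lower when 1 culture was omitted. In that list 2 genes were called higher without dome 1 and 1 with the replicate block. Hsp90aa1, the inducible HSP90, had 187, 123 and 139.7 CPM in domes and 736, 656 and 495 in suspension (-2.06 ± 0.24, 0.00098). Hsph1, an exchange factor of HSP70, had 17.7, 8.8 and 23.6 against 87.5, 86.8 and 81.9 CPM (-2.32 ± 0.28, 0.00103), and the mitochondrial chaperonin Hspd1 134, 77.7 and 173 against 334, 330.3 and 336 CPM (-1.37 ± 0.27, 0.00575). The unfolded protein and integrated stress response had 6 higher and 3 lower of 33 (median -0.01), so 27.3% were called, beside 29.8% of all tested genes. Ddit3, encoding CHOP, had 9.67, 66 and 17.1 against 2.52, 5.44 and 3.79 CPM (2.86 ± 0.66, 0.0113), while Hsp90b1, a chaperone of the endoplasmic reticulum, had 198, 124 and 182 against 399.8, 319.5 and 382 CPM (-1.12 ± 0.23, 0.00632). Without suspension cultures 1, 2 and 3, 2, 3 and 3 of the 6 were called higher. Among nuclear and snoRNA-host noncoding RNAs 6 of 17 were lower and 3 higher (median -0.45). Neat1, the scaffold of paraspeckles, had 23.3, 30.8 and 19.2 against 116, 127 and 147 CPM (-2.43 ± 0.22, 0.000563), and Malat1, of nuclear speckles, 189, 162 and 55.5 against 1271, 1013 and 738 CPM (-2.88 ± 0.42, 0.00201). The snoRNA hosts Gas5 and Zfas1 went up by 1.08 ± 0.24 (0.009) and 1.71 ± 0.41 (0.0122), and without suspension culture 1 or 3 none of the 3 was called. The calls of Gas5 (adj. P-value 0.0537–0.0571 without suspension cultures 1 and 3) and Zfas1 (0.0522–0.0556 without suspension cultures 1 and 3) were lost on omission of 1 culture. The log2 fold-change of Ddit3 was 1.67 without dome 2.

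Signalling lists held calls in both directions. Of 33 Hippo pathway and YAP target genes 7 were lower and 1 higher (median -0.48), and 2 were higher with the replicate block or without dome 1. In that list 24.2% were called, beside 29.8% of all tested genes. Its 16 members with a longest transcript of 4499 bases or more had a median of -0.45. The median of all tested genes of that length was -0.45 as well. Ccn1 and Ankrd1, targets of YAP in stretched or spread cells, had 11.9, 25.7 and 18.7 against 41.2, 44.7 and 39.3 CPM (-1.25 ± 0.28, 0.00943) and 54.9, 47.7 and 23.1 against 99.3, 133 and 86.9 CPM (-1.32 ± 0.30, 0.011). Without suspension cultures 2 and 3 the lower calls were 3 and 4. Of 26 EGF receptor ligands and ERK feedback genes 7 were higher and 5 lower. Fosl1 was lower with 10.1, 10.3 and 8.8 against 24, 31.9 and 27.6 CPM (-1.51 ± 0.22, 0.00204), while Ier3 was higher with 147, 399.6 and 163 against 57, 81.6 and 61 CPM (1.82 ± 0.37, 0.0065). Without suspension cultures 2 and 3 the genes called higher were 4 and 3, and the genes called lower were 3 without dome 1 or any 1 of the suspension cultures and 2 in thinned libraries. In the Wnt list 2 of 28 were higher and 3 lower, and in the Notch list 2 of 21 were higher and 3 lower, shares below those of all tested genes. Tcf7l2, the main Wnt effector in the gut, had 12.1, 19.1 and 16.5 against 33.5, 38.1 and 36.4 CPM (-1.24 ± 0.23, 0.00468). Jag1, a Notch ligand of bile ducts, had 174, 187 and 127 against 396, 421 and 276 CPM (-1.16 ± 0.24, 0.00682). The lower Wnt calls were 1 without any 1 of the suspension cultures, and the higher calls 1 without dome 1. Without dome 1 the Notch genes called higher were 5, and without any 1 of the suspension cultures 1. Immediate early genes were higher in 5 of 17 and lower in 1, Fosb, which had 0.0761, 0.733 and 0 against 2.95, 5.44 and 5.1 CPM (-4.96 ± 0.73, 0.00201), with 3 lower under the replicate block and 2 without dome 2. The immediate early genes called higher were 3 without suspension culture 1 or 3, and the share called in the main fit was 35.3%. Of 27 TGF-beta and BMP genes 4 were higher and 5 lower, so 33.3% were called, beside 29.8% of all tested genes. In that list 2 were higher without any 1 of the suspension cultures, and 3 lower without suspension culture 3 or in thinned libraries. Bmp2 had 9.29, 36.7 and 17.6 against 2.1, 3.31 and 1.72 CPM (3.10 ± 0.52, 0.00348) and Bmp4 24.4, 11.7 and 13.2 against 41.7, 46.4 and 48 CPM (-1.36 ± 0.27, 0.00643). With 1 culture omitted, the call was lost for Ankrd1 (adj. P-value 0.05 without suspension culture 2).

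The genes that build and anchor the epithelium changed in part. Of 16 tested laminins, collagens and other basement membrane genes 3 were higher and 5 lower (median -0.25). All 16 had a longest transcript of 4499 bases or more. All tested genes of that length had a median of -0.45, with 5.58% higher and 23.8% lower. The median of the list was therefore not below theirs, while 50% of the list were called, in both directions. Col4a1, a chain of the collagen IV network, had 27.3, 16.9 and 17.6 CPM in domes and 46.3, 49.4 and 54.4 in suspension (-1.22 ± 0.23, 0.00502), and Fn1, fibronectin, 2.89, 9.53 and 5.5 against 13.7, 21.1 and 28.1 CPM (-2.12 ± 0.44, 0.00745). Lamb3, of the laminin that anchors epithelia, had 96, 122 and 129.8 against 57.5, 60.8 and 62.6 CPM (0.94 ± 0.19, 0.00644). The 3 higher calls fell to 1 without dome 1, dome 3 or any 1 of the suspension cultures, and the lower calls to 3 without suspension culture 3. Integrins and matrix receptors had 4 higher and 2 lower of 19 (median 0.00), so 31.6% were called, beside 29.8% of all tested genes. They had 2 higher and 1 lower without any 1 of the suspension cultures. Cd151, a tetraspanin partner of integrins, had 139.6, 138 and 113 against 64.6, 69.5 and 68.2 CPM (0.95 ± 0.18, 0.00499). Matrix proteases and inhibitors had 8 higher and 3 lower of 19 (median 0.31), with 2, 3 and 3 higher calls without suspension cultures 1, 2 and 3 and 1 lower call without suspension culture 1. Mmp15, a membrane-bound metalloprotease, had 35.6, 67.5 and 62.7 against 11.8, 12.3 and 9.92 CPM (2.27 ± 0.28, 0.00105), and Mmp7, a protease of injured ducts, 88.5, 326 and 1110 against 61, 59.1 and 75.1 CPM (2.96 ± 0.70, 0.0124). Junction genes had 10 higher and 3 lower of 31 (median 0.35), with 4 higher without suspension culture 1 and 1 lower without suspension culture 3. Gjb1, the gap junction protein connexin 32, had 292, 345 and 494 against 69, 70.7 and 87.2 CPM (2.31 ± 0.24, 0.00076), and Gja1, connexin 43, 1.37, 5.87 and 1.65 against 4.21, 13.9 and 22 CPM (-2.70 ± 0.70, 0.0173). On omission of 1 culture the call was lost for Mmp7 (adj. P-value 0.0516 without suspension culture 1) and Gja1 (0.081–0.107 without dome 1 and suspension culture 3). In log2 units the change of Mmp7 was 1.61 without dome 3.

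Log2 fold-changes also ran with the length of the transcript. Among 12691 tested genes with a length in the annotation, Spearman's rho between the log2 fold-change and the longest annotated transcript was -0.305 across genes, which share libraries and depth and are not independent replicates. Genes were placed in 4 length classes of equal size. In the shortest class (57–1752 bases) the median log2 fold-change was 0.31, with 22.1% called higher and 8.25% lower. In the longest class (4499–123179 bases) the median was -0.45, with 5.58% higher and 23.8% lower. The nuclear transcript Malat1 and the long gene Prrc2c were among the genes called lower. The division and biotransformation groups kept their direction within each class. Replication and mitosis genes had medians of -1.18, -1.48, -1.44 and -2.23 from the shortest to the longest class, and biotransformation genes 1.38, 2.01, 1.38 and 0.97. Intestinal-type genes had medians of 2.89, 2.75 and 3.08 in the 3 shorter classes, and interferon-stimulated genes 1.91, 2.17, 0.71 and 0.81. Ribosomal proteins in the shortest class had a median of 0.56, beside 0.31 for all genes of that length. The part of transcript length or RNA quality in these results was not tested.

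**Figure D5:**
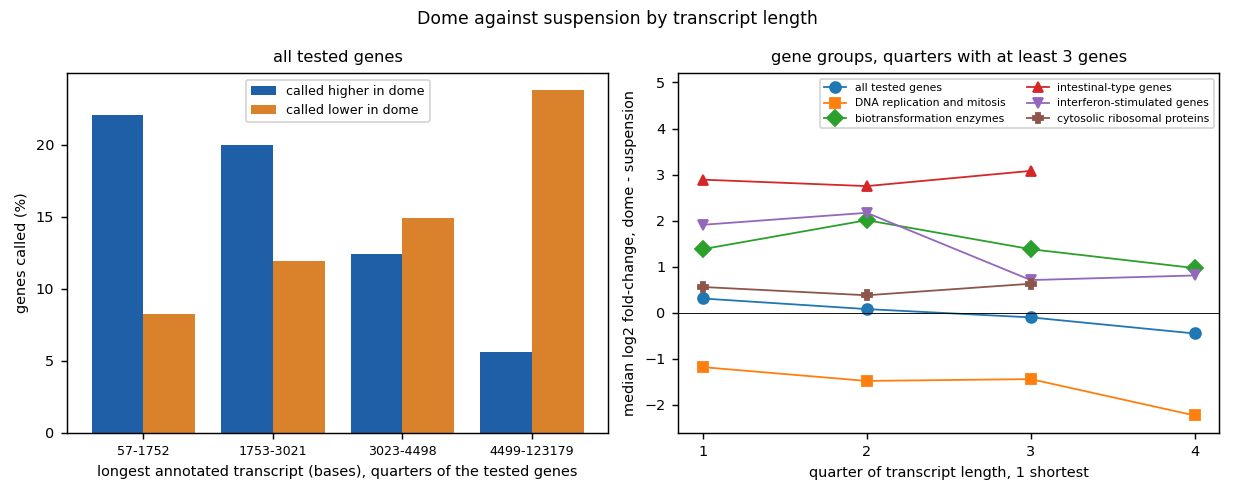
Left, the share of tested genes called higher (blue) or lower (orange) in domes for 4 classes of the longest annotated transcript in bases, and right, the median log2 fold-change of gene groups in each class with at least 3 genes. Calls change from mostly higher (22.1% against 8.25%) to mostly lower (5.58% against 23.8%) with length, while division genes stay below 0 and biotransformation and intestinal-type genes above 0.

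These 3 domes differed more among themselves than the 3 suspension cultures did. The root-mean-square distance of a culture to its group mean over the log2 CPM of tested genes was 0.570 ± 0.058 (SD, n = 3) in domes and 0.286 ± 0.019 (SD, n = 3) in suspension. The two-sided exact permutation test of these distances gave a P-value of 0.1, which is the smallest possible for 3 against 3 samples. Distances within a group share its mean and are not independent, and group means were not recomputed. The test therefore cannot decide whether the conditions differ in spread. In libraries thinned to the smallest total the distances were 0.470 and 0.308, without overlap between groups. Among lists the distance in domes was largest for apolipoproteins (1.53, against 0.602 in suspension), the 5 tested hepatocyte markers (1.36 against 0.828), intestinal-type genes (1.29 against 0.788) and P450 enzymes of families 1 to 3 (1.11 against 0.343). Of 5428 well expressed genes, 23 lay more than 2 log2 units above both other domes in dome 1 and 25 below, 10 and 11 in dome 2, and 1 and 8 in dome 3. In the suspension cultures at most 4 lay above and 2 below. The genes highest in dome 1 alone were Cyp4f14, Reg3b and Ces2e, the last with 108, 0.733 and 4.95 CPM in domes. Of the list members that could not be tested for low counts, 15 had at least 40 counts in dome 1, 14 of them with at most 11 counts in every other library. Cyp3a11, the main drug-oxidising P450 of mouse liver, had 416 counts in dome 1, 0 and 0 in the other domes and 1, 4 and 3 in suspension. The others with this pattern included Mep1a with 171 counts, Cd36 with 127, Mep1b with 95 and Sult1d1 with 89. Dome 1 was also the deepest library, with 14761853 counts, and suspension culture 3, nearly as deep, had 3 such genes, Cldn6 with 135 counts, Axl with 48 and Slc38a1 with 45.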

How the data were processed

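Gene expression was analysed from the gene counts deposited by the authors for 3 dome and 3 suspension cultures of mouse cholangiocyte organoids. The authors made them from 3′-end libraries with molecular identifiers through zUMIs, with alignment by STAR to mm10, SAMtools 1.9 and featureCounts, and with down-sampling within zUMIs. Whether the counts are molecules or reads, and from before or after down-sampling, was not given in any source used here. Library totals were 1776490 to 14761853 counts, and floors and noise refer to counting error only. The count tables of the single organoids and of the passages were not used here.

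The filter was filterByExpr at min.count 3, and libraries were normalised by TMM and tested in edgeR 4.0.16 (R 4.3.3) with quasi-likelihood F-tests without a block, at an adj. P-value of 0.05. Standard errors were derived from the F statistic. Groups and replicate numbers came from the sample labels. Deviations from the group means had r = 0.153, 0.165 and 0.191 for cultures with the same number and -0.127 to -0.0452 for other pairs. Deviations cancel within a group, so positive values for some pairs push the others below 0. The contrast therefore cannot establish a pairing. The numbers were taken as a possible pairing, and a fit with the number as a block was run. P-values weigh the difference between conditions against the variation among these cultures, estimated for both conditions together. The chi-square per degree of freedom of replicate pairs was 3.33–23, above sampling noise for every pair. Alternatives were RLE size factors, no filter, a minimum count of 10, limma-voom (limma 3.58.1), DESeq2 1.42.0, thinning to the smallest total, the block and leaving out each culture. Scripts were tested on simulated counts.

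The 53 gene lists, marker lists included, and the rule for named genes were chosen with earlier results of these data known, so they describe and support nothing. Named genes were up to 4 called members of each list with the smallest adj. P-value in the main direction and up to 2 in the other (with none called, the tested member with the highest level), the 10 largest changes each way without overlap among genes averaging 4 or more in log2 CPM, the markers, and for each culture the 3 genes farthest above and the 3 farthest below the others of its group. Full enumerations of called members apart, genes outside this rule are marked as such. Some genes named by the rule are not reported here. Gene positions and promoters were those of GRCm38, and transcript lengths were the longest in GENCODE for that build.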

Additional observations from a re-analysis of the deposited data

How the results depend on the processing

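The number of differentially expressed genes was 3779, and it was 3823 with RLE size factors, 4497 with no filter, 3576 with a minimum count of 10, 4004 with limma-voom, 3406 with DESeq2 and 2821 in thinned libraries. Leaving out 1 culture gave 1840 to 3747 genes, with 912 to 1921 higher and 928 to 1851 lower in domes, and the low values came from leaving out a suspension culture, for which the cause was not tested. Of 281 named genes, of which 252 were called, 55, 42 and 53 lost their call without suspension cultures 1, 2 and 3, and 19, 8 and 11 without domes 1, 2 and 3. Calls were lost for 14 in thinned libraries, 12 with limma-voom, 4 with DESeq2, 3 with no filter and none with RLE or a minimum count of 10. Among named genes called in the main fit or in the changed one, only Cyp4f14 turned its direction, at -0.958 without dome 1 and up to 3.88 without dome 3. Changes of sign in named genes called in neither fit were not counted. Of 88 counts of higher or lower calls in the lists, those that moved by over 1.5 times were 45, 39 and 43 without suspension cultures 1, 2 and 3, 17, 8 and 11 without domes 1, 2 and 3, 17 with no filter, 12 in thinned libraries, 11 with limma-voom, 11 with the replicate block, 6 with a minimum count of 10, 5 with DESeq2 and 0 with RLE. The median log2 fold-change of all genes was -0.081 to -0.023 over the settings. The difference in spread between domes and suspension cultures was 0.2848, 0.1624 in thinned libraries and 0.2263 to 0.3158 with 1 culture left out, and libraries of unequal depth limit that comparison.

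With the replicate number as a block 4019 genes were called, 2028 higher and 1991 lower in domes. Of the named genes Tgfb3 lost its call, as did Cyp4f14 and Reg3b, and 8 gained one, Apoe, Apoc1, Gata5, Igfbp4, Clic6, Pcyox1l, Rbm28 and Bc1. No other call of a named gene changed with the block.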
